A study of Mus musculus with 12 samples.

Results

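A set of genes of the inflammasome and the interleukin-1 family were followed through large peritoneal macrophages of wild-type and Tim4-deficient mice, before and after a challenge with tumour cells. These 10 genes are Nlrp3, Pycard, Casp1, Casp4, Gsdmd, Il1a, Il1b, Il18, Il1rn and Il1r2, chosen as the rows of the raw count table whose Ensembl identifiers map to these symbols. Each of the 10 symbols matched 1 identifier, among 57010 genes in the table. Of the 10, 9 passed the filter on low counts and were tested among 15943 genes, and Il1r2 did not pass it.

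The study holds 12 RNA libraries in 4 groups of 3, all from female mice. The naive groups were wild-type (WT) and Tim4 knockout (Tim4KO) mice, from which F4/80high MHCIIlow macrophages were sorted. In the other groups, WT ID8 and Tim4KO ID8, 8-week-old mice received ID8ZGO cells into the peritoneum. ID8 is a mouse ovarian surface epithelial tumour line, and these cells carried the green fluorescent protein ZsGreen and the antigen OVA. Macrophages of these groups were sorted 24 hours later by the same markers and, in addition, for ZsGreen. The challenge comparisons therefore measure exposure to tumour cells and selection for cells that had taken up ZsGreen together, and these cannot be told apart. Tim4, encoded by Timd4, is a receptor for phosphatidylserine on dying cells. The labels give no age for the naive mice, do not say how the knockout was made, and do not say that the 3 libraries of a group came from separate animals, so p-values measure only the spread between these libraries.

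An inflammasome is a cytosolic complex in which a sensor such as NLRP3 recruits the adaptor ASC, encoded by Pycard, and ASC recruits caspase-1. Active caspase-1 cuts the precursors of interleukin-1 beta and interleukin-18 and the pore-forming protein gasdermin D, whose pores release these cytokines and can lyse the cell. The protein encoded by mouse Casp4 is the cytosolic receptor for bacterial lipopolysaccharide and cuts gasdermin D directly. Interleukin-1 alpha and beta share one receptor, which is held in check by a soluble antagonist, encoded by Il1rn, and by a decoy receptor, encoded by Il1r2. These steps are controlled in large part on protein, by cleavage and assembly, and only transcript levels were measured here.

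Library totals ran from 7358559 to 23170244 counts, and the highest was that of the third WT ID8 library. That library also stood apart in its background: the summed level of olfactory and vomeronasal receptor genes, which macrophages should not express, was 6.25 CPM there and ran from 41.8 to 828 CPM in the other libraries. In WT this background also separated the groups, at 323 to 828 CPM in naive and 6.25 to 253 CPM in ID8 libraries. In Tim4KO it overlapped, at 266 to 446 CPM and 41.8 to 360 CPM. CPM is the usual count scaled to library size, taken here after TMM scaling of the library totals. Results that rest on the third WT ID8 library are given with and without it. Timd4 lay between 882 and 1481 CPM in the WT libraries and between 1.38 and 7.68 CPM in the Tim4KO libraries. All 9 markers listed for large peritoneal macrophages exceeded 3 counts in every library, and their summed level was 47764 to 54751 CPM in naive and 19492 to 24615 CPM in ID8 libraries. That difference was in Lyz2, at 40264 to 47284 CPM in naive and 10689 to 14976 CPM in ID8 libraries. Some other markers on the list were higher in every ID8 library than in every naive one. Adgre1, which encodes F4/80, ran from 2545 to 3769 CPM in naive and from 3917 to 6289 CPM in ID8 libraries, and Itgam and Icam2 were likewise higher. Mertk was lower in every ID8 library, at 140 to 216 CPM in naive and 129 to 133 CPM in ID8 libraries. Csf1r, Selp, Fcgr1 and Gata6 overlapped between naive and ID8 libraries. Gata6, which encodes the transcription factor that defines these macrophages, was at 119 CPM or more in every library.

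The promoters of 4 members are shown because these members carry the results below: Il1a, Il1b and Il1rn had the largest fold differences after challenge in WT, and Casp4 was one of the members whose ID8 libraries did not overlap between genotypes. Each line gives the 250 bases before an annotated start, from RefSeq on build GRCm38.p6, on the strand of the gene. Capitals mark matches, on either strand, to 3 of 5 searched motifs: NF-kB (GGGNNTTTC), AP-1 (TGANTCA) and the TATA box (TATAAA). The Il1a window is chr2:129309973-129310222 on the minus strand, and the Il1b window is chr2:129371140-129371389, also on the minus strand. The Il1rn windows are chr2:24336610-24336859 (start 1) and chr2:24345121-24345370 (start 3), and the Casp4 window is chr9:5308599-5308848 (start 1), all on the plus strand.
Il1a: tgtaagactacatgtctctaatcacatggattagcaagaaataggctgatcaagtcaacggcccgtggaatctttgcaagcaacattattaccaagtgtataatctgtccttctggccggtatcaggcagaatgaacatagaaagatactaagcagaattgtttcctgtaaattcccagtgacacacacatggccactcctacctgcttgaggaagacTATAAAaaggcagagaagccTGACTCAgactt
Il1b: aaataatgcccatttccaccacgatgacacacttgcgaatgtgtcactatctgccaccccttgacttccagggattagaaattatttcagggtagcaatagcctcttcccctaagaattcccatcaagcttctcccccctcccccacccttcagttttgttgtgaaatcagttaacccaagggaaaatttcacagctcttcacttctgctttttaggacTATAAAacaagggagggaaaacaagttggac
Il1rn start 1: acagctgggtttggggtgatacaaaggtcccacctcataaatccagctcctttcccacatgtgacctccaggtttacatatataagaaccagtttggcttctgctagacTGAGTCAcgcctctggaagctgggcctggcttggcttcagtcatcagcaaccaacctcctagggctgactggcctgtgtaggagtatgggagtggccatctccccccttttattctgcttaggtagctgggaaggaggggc
Il1rn start 3: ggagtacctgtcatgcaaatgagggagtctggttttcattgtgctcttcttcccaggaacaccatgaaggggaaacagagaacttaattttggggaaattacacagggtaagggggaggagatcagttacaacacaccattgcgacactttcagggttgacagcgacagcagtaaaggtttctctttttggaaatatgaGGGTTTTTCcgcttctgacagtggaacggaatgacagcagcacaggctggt
Casp4: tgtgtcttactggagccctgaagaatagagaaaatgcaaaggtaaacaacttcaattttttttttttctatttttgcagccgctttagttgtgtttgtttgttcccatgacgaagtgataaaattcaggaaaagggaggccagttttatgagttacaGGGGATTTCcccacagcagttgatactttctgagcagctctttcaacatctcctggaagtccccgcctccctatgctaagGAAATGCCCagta

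The Il1a window held TATAAA 32 to 27 bases and TGACTCA 12 to 6 bases before the start. The Il1b window held TATAAA at almost the same distance, 31 to 26 bases before the start, and no match to the AP-1 letters. Il1rn start 1 held TGAGTCA 141 to 135 bases before it, start 3 held GGGTTTTTC 51 to 43 bases before it, and start 2 held no match. Casp4 held 2 NF-kB matches, GGGGATTTC at 93 to 85 bases and GAAATGCCC at 13 to 5 bases before its start 1. Before its start 2, whose window is not shown, the same matches lay at 104 to 96 and 24 to 16 bases. Among 32851 windows of the same length, 3.72% held the NF-kB letters, 6.75% the AP-1 letters and 12.4% the TATA letters. The other motifs searched were C/EBP (TTGCNNAA), in 9.56% of windows and among the members in Pycard, and an interferon-stimulated response element (GAAANNGAA), in 7.13% of windows and in none of the members' windows. Windows were at hand for 9 of the 10 members. A match describes letters in a window and no binding was measured. Il1a and Il1b are neighbours on chromosome 2, with no protein-coding gene between them, and Casp1 and Casp4 are neighbours on chromosome 9.

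After challenge in WT mice, 7 of the 9 tested members changed: Pycard, Casp1, Gsdmd, Il1a, Il1b and Il1rn rose and Nlrp3 fell. In Tim4KO mice 5 changed: Pycard, Gsdmd and Il1a rose, and Nlrp3 and Casp4 fell. A call here is a Benjamini-Hochberg adjusted p under 0.05 in edgeR's quasi-likelihood test over all 12 libraries. The background is high: in WT 31.8% of all tested genes were called, 19.5% as higher and 12.3% as lower, and in Tim4KO 16.6% were called, 11.5% as higher and 5.06% as lower. The median log2 fold change of the 9 members was 0.51 in WT and 0.35 in Tim4KO, against -0.04 and -0.05 over all tested genes. The members were chosen with earlier results of these data known, so the counts and medians beside those of all genes are descriptions. Both challenge comparisons use their own naive group, but the fit shares one estimate of spread. In these bulk samples, fewer cells of a type and less RNA per cell cannot be told apart.

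**Figure D1:**
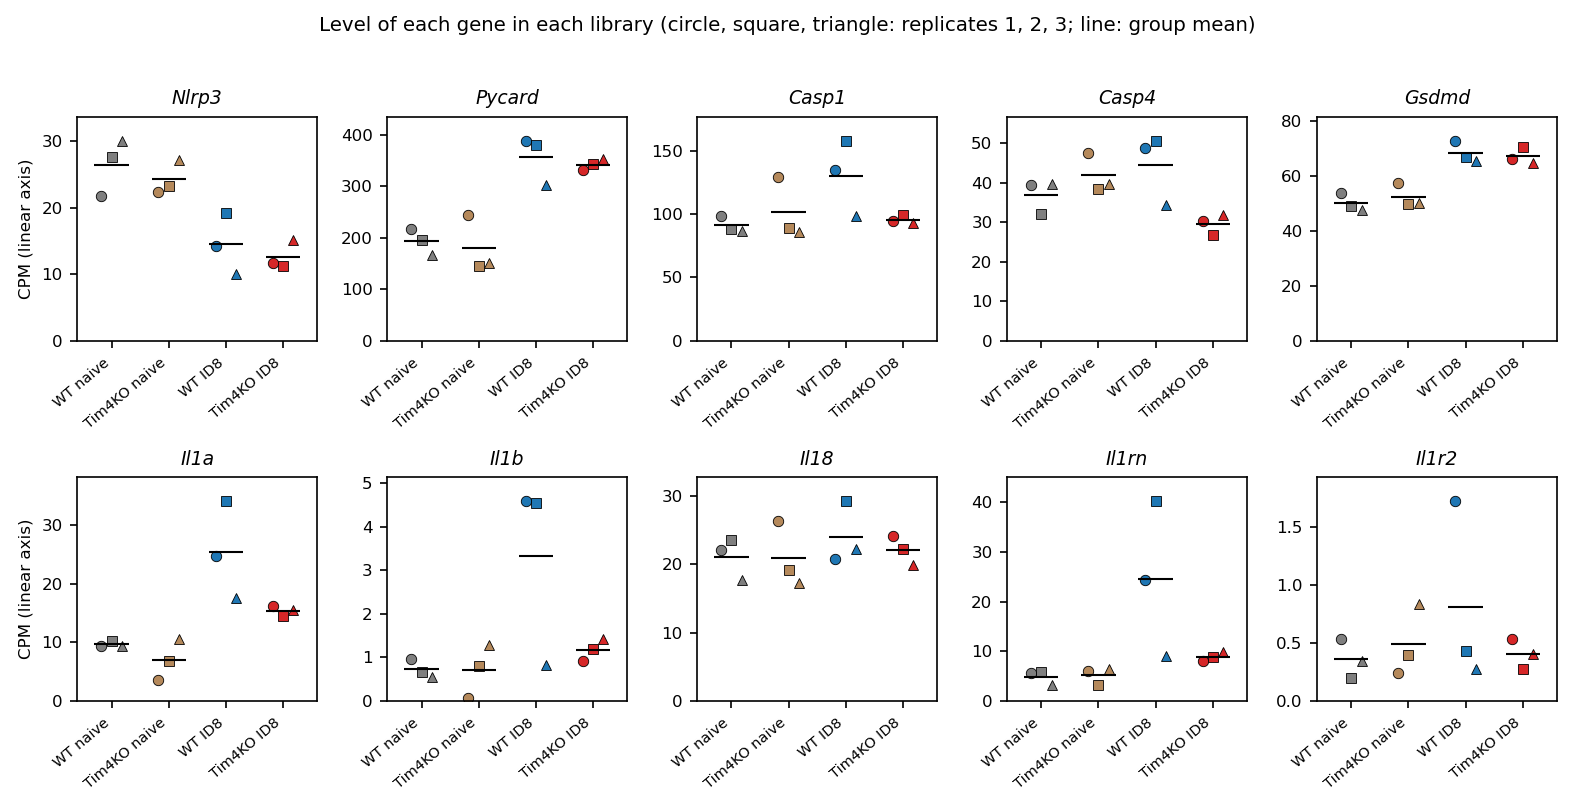
Levels of the 10 members by library. Each panel is 1 gene, the vertical axis is TMM-normalized CPM from 0, each point is 1 of 12 libraries and the horizontal bar is the mean of the group's 3 libraries. Nlrp3 is lower and Pycard, Gsdmd and Il1a are higher in every ID8 library than in every naive library of the same genotype, and the third WT ID8 library lies below the other WT ID8 libraries for Il1rn and Il1b.

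Nlrp3, the sensor that responds to many forms of cell stress, had 21.8, 27.6 and 30.1 CPM in WT naive and 22.5, 23.3 and 27.1 CPM in Tim4KO naive libraries. It had 14.3, 19.2 and 10.1 CPM in WT ID8 and 11.7, 11.2 and 15.1 CPM in Tim4KO ID8 libraries. Every ID8 library was below every naive library. The log2 fold change was -0.88 (SE 0.21, edgeR adjusted p = 0.00624) in WT and -0.94 (SE 0.21, edgeR adjusted p = 0.00783) in Tim4KO. Nlrp3 stayed called in each of the 12 fits that left out 1 library, in both genotypes. With the olfactory background level as a covariate, the WT call was lost (adjusted p = 0.107, against 0.000298 to 0.107 over the settings tried with all libraries).

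Pycard, the adaptor, moved the opposite way to Nlrp3. It had 217, 196 and 167 CPM in naive WT, 244, 146 and 152 CPM in Tim4KO naive, 388, 380 and 302 CPM in WT ID8 and 332, 343 and 352 CPM in Tim4KO ID8 libraries. The ID8 libraries were all above the naive ones, with no overlap in either genotype. The rise was 1.84-fold in WT (log2 0.88, SE 0.18, edgeR adjusted p = 0.00226) and 1.89-fold in Tim4KO (log2 0.92, SE 0.18, edgeR adjusted p = 0.00319). It was called under every setting tried and with any 1 library left out. A gene model on the opposite strand, Gm45205, overlaps 12.8% of the exon bases of Pycard. It held 1 to 6 counts per library, against 1099 to 6619 for Pycard, and strand use in counting is not given in the sources used here.

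Casp1, the protease that ASC recruits, had 98.6, 88.3 and 86.8 CPM in WT naive and 135, 158 and 98.4 CPM in WT ID8 libraries. The first and second WT ID8 libraries were high, and the third overlapped the naive group. In Tim4KO the values were 129.5, 88.6 and 85.6 CPM naive and 94.6, 99.1 and 92.6 CPM after challenge, and the groups overlapped. Casp1 rose in WT (log2 0.51, SE 0.18, edgeR adjusted p = 0.041) and was not called in Tim4KO (log2 -0.09, 95% interval -0.47 to 0.29, edgeR adjusted p = 0.778). The WT call held in 8 of the 12 fits that left out 1 library, and was lost without any one WT naive library or the second WT ID8 library (adjusted p up to 0.146). It was also lost with RLE or upper-quartile scaling and in a fit of only the groups compared.

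Casp4, the lipopolysaccharide-sensing caspase, had 39.3, 32.1 and 39.5 CPM in WT naive and 48.8, 50.5 and 34.3 CPM in WT ID8 libraries, which overlapped. In Tim4KO it had 47.5, 38.3 and 39.6 CPM naive and 30.2, 26.6 and 31.9 CPM after challenge, where every ID8 library was below every naive one. Casp4 fell in Tim4KO (log2 -0.50, SE 0.16, edgeR adjusted p = 0.042) and was not called in WT (log2 0.26, 95% interval -0.08 to 0.60, edgeR adjusted p = 0.207). The Tim4KO call was narrow: it held only in the 3 fits that left out 1 WT ID8 library, and without any one naive or Tim4KO ID8 library the adjusted p was up to 0.205. It was also lost without the filter on low counts and with the background covariate (adjusted p up to 0.183). Without the third WT ID8 library, Casp4 was called as higher in WT (log2 0.45, adjusted p = 0.0295, against 0.0295 to 0.426 over the fits that left out 1 library).

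Gsdmd, which encodes the pore-forming protein that both caspases cut, had 53.9, 48.9 and 47.6 CPM in WT naive and 72.7, 66.8 and 65.5 CPM in WT ID8 libraries. In Tim4KO it had 57.2, 49.9 and 50.0 CPM naive and 66.1, 70.6 and 64.6 CPM after challenge. All ID8 libraries were above all naive libraries, although the step was small. Gsdmd rose 1.36-fold in WT (log2 0.44, SE 0.11, edgeR adjusted p = 0.00864) and 1.28-fold in Tim4KO (log2 0.35, SE 0.11, edgeR adjusted p = 0.0429). The WT call held with any 1 library left out and was lost with upper-quartile scaling and in a fit of only the groups compared. The Tim4KO call held in 4 of 12 such fits and was lost without the second or the third library of either naive group, the first WT ID8 library or any one Tim4KO ID8 library (adjusted p up to 0.154). It was also lost with RLE factors, upper-quartile factors and no filter on low counts (adjusted p up to 0.246).

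Il1a, which encodes interleukin-1 alpha, an alarm cytokine active without caspase-1, had 9.44, 10.3 and 9.45 CPM in WT naive and 3.59, 6.89 and 10.6 CPM in Tim4KO naive libraries. After challenge it had 24.8, 34.1 and 17.6 CPM in WT and 16.3, 14.4 and 15.5 CPM in Tim4KO. Every ID8 library was above every naive library. Il1a rose 2.59-fold in WT (log2 1.38, SE 0.30, edgeR adjusted p = 0.00428) and 2.16-fold in Tim4KO (log2 1.11, SE 0.31, edgeR adjusted p = 0.0257). The WT call held with any 1 library left out, and the Tim4KO call held in 8 of 12 such fits and was lost without the second Tim4KO naive library or any one Tim4KO ID8 library (adjusted p up to 0.0946). Gm14023, on the opposite strand, overlaps 11.2% of the exon bases of Il1a and held 6 to 52 counts per library, against 44 to 397 for Il1a.

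Il1b, which encodes interleukin-1 beta, was scarce. It had 0.966, 0.665 and 0.556 CPM in naive WT, 0.0817, 0.796 and 1.29 CPM in Tim4KO naive, 4.59, 4.55 and 0.821 CPM in WT ID8 and 0.921, 1.19 and 1.43 CPM in Tim4KO ID8 libraries. These are 1 to 53 counts per library. The first and second WT ID8 libraries stood above all others, and the third lay among the naive values. Il1b rose in WT (log2 2.16, SE 0.72, edgeR adjusted p = 0.0331) and was not called in Tim4KO (log2 0.67, 95% interval -0.88 to 2.22, edgeR adjusted p = 0.579). The WT call was lost without any one WT naive library or the second WT ID8 library (adjusted p up to 0.111). It was also lost with upper-quartile factors, limma voom, only the groups compared and a replicate block (adjusted p up to 0.233). Without the third WT ID8 library the log2 fold change was 2.68.

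Il18, which encodes the other cytokine that caspase-1 activates, was the tested member that was called in no comparison and under no setting tried. It had 22.1, 23.5 and 17.8 CPM in naive WT, 26.3, 19.2 and 17.3 CPM in Tim4KO naive, 20.8, 29.3 and 22.2 CPM in WT ID8 and 24.1, 22.2 and 19.98 CPM in Tim4KO ID8 libraries. All 4 groups overlapped. Its log2 fold change after challenge was 0.18 in WT (95% interval -0.21 to 0.57, edgeR adjusted p = 0.447) and 0.08 in Tim4KO (95% interval -0.32 to 0.47, edgeR adjusted p = 0.816).

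Il1rn, which encodes the interleukin-1 receptor antagonist, had the largest fold rise of the members in WT. It had 5.69, 5.79 and 3.33 CPM in WT naive and 24.4, 40.2 and 8.98 CPM in WT ID8 libraries. In Tim4KO it had 5.96, 3.31 and 6.43 CPM naive and 8.14, 8.91 and 9.87 CPM after challenge. In both genotypes every ID8 library was above every naive one, and the first and second WT ID8 libraries stood far above the rest. Il1rn rose 4.94-fold in WT (log2 2.30, SE 0.46, edgeR adjusted p = 0.00329). In Tim4KO the log2 fold change was 0.75 (95% interval -0.25 to 1.74, edgeR adjusted p = 0.305) and was not called. Without the third WT ID8 library the WT value was 2.75, and the Tim4KO value of 0.75 was called (adjusted p = 0.0363, against 0.0363 to 0.599 over the fits that left out 1 library). A fit of only the 2 Tim4KO groups also called it (adjusted p = 0.0444, against 0.0444 to 0.504 over the settings tried with all libraries).

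Il1r2, the decoy receptor, was near the limit of detection, taken as 3 counts or 0.137 to 0.398 CPM by library. It had 0.537, 0.200 and 0.347 CPM in naive WT, 0.245, 0.398 and 0.839 CPM in Tim4KO naive, 1.72, 0.429 and 0.274 CPM in WT ID8 and 0.537, 0.276 and 0.402 CPM in Tim4KO ID8 libraries, or 3 to 15 counts. The groups overlapped, with 1 high library each in Tim4KO naive and WT ID8. A difference in Il1r2 was not detectable at this depth, and without the filter on low counts its log2 fold change after challenge in WT was 1.16 (edgeR adjusted p = 0.402).

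**Figure D2:**
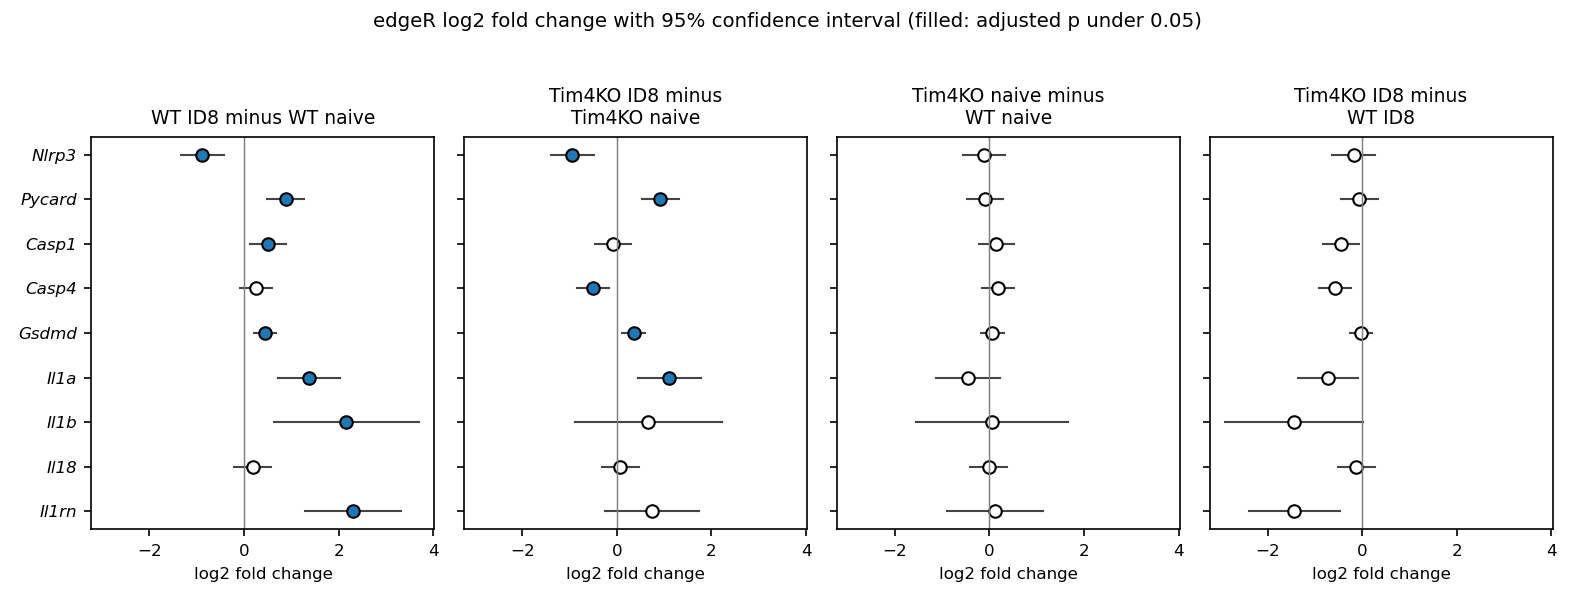
Log2 fold changes of the 9 tested members from the edgeR fit, with 95% confidence intervals. The panels are the challenge comparison in WT and in Tim4KO, and Tim4KO against WT in naive and in ID8 cells, filled points are called at an adjusted p under 0.05. The challenge panels hold 7 filled points in WT and 5 in Tim4KO, and the genotype panels hold none.

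Cells of other kinds also transcribe these genes, neutrophils above all Il1b, Il1rn and Il1r2. The summed level of 13 neutrophil markers was lower after challenge, at 187 to 264 CPM in naive WT, 208 to 285 CPM in Tim4KO naive, 80.5 to 122 CPM in WT ID8 and 114 to 125 CPM in Tim4KO ID8 libraries, most of it from Csf3r. Ly6g, a defining neutrophil marker, had 0 to 4 counts and was at 0 in 6 of 12 libraries, and Ngp was likewise at 0 in 6. Among the other listed neutrophil markers, some had higher and some had lower values in ID8 libraries. S100a8 ran from 4.38 to 7.35 CPM in naive and from 9.12 to 24.8 CPM in ID8 libraries, and Retnlg ran from 0 to 1.85 CPM in naive, 0.601 to 3.898 CPM in WT ID8 and 4.99 to 11.9 CPM in Tim4KO ID8 libraries. Over all naive and all ID8 libraries, S100a9 and Cxcr2 overlapped. They reached 1.23 and 0.951 CPM in naive, 3.90 and 3.33 CPM in WT ID8 and 2.07 and 1.84 CPM in Tim4KO ID8 libraries. Mmp9, Mmp8, Elane and Mpo had lower highest values in ID8 than in naive libraries of the same genotype. Camp and Ltf had at most 5 and 9 counts. The part of neutrophils in the Il1b and Il1rn results was not tested.

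Between Tim4KO and WT naive cells none of the 9 tested members was called, by edgeR or by DESeq2. Of all tested genes 0.0439% were called in this comparison, and 6.27% had an unadjusted p under 0.05, which no member had. The members' log2 fold changes ran from -0.45 for Il1a (95% interval -1.12 to 0.22) to 0.18 for Casp4 (95% interval -0.16 to 0.51), with edgeR adjusted p from 0.855 to 0.993. For each of the 10 members the WT and Tim4KO naive libraries overlapped, but the share of all tested genes with such overlap was not counted. The intervals were wide for the scarce transcripts, reaching from -1.55 to 1.65 for Il1b and from -0.90 to 1.14 for Il1rn.

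Between Tim4KO and WT cells after challenge, the fit of all 12 libraries called none of the 9 tested members, where 0.0565% of all tested genes were called. With an unadjusted p under 0.05 there were 4 members, Casp1, Casp4, Il1a and Il1rn, all lower in Tim4KO, against 12.1% of all tested genes in either direction. DESeq2 called 2 members, Casp4 and Il1rn, where it called 2.42% of the genes to which it gave an adjusted p. Without the filter on low counts, edgeR called Il1a and Il1rn, where it called 0.52% of genes. With the background covariate it called Casp4, where it called 1.03%. Over the settings tried with all libraries, the adjusted p ran from 0.0485 to 0.411 for Il1a and from 1.32e-05 to 0.435 for Il1rn. The values below are from the fit of all 12 libraries with the filter. Casp4 had 26.6 to 31.9 CPM in Tim4KO ID8 and 34.3 to 50.5 CPM in WT ID8 libraries, with no overlap (log2 -0.58, SE 0.16, edgeR adjusted p = 0.201). Il1a had 14.4 to 16.3 CPM against 17.6 to 34.1 CPM, also with no overlap (log2 -0.72, SE 0.30, edgeR adjusted p = 0.363). The share of all tested genes without overlap was not counted, so the lack of overlap only describes these libraries. Casp1 (log2 -0.45, SE 0.18, edgeR adjusted p = 0.343), Il1b (log2 -1.44, SE 0.68, edgeR adjusted p = 0.416) and Il1rn (log2 -1.44, SE 0.44, edgeR adjusted p = 0.275) overlapped between the genotypes, because the third WT ID8 library lay among or next to the Tim4KO values. Nlrp3, Pycard, Gsdmd and Il18 differed by -0.18 to -0.02 on the log2 scale (edgeR adjusted p from 0.754 to 0.949).

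Without the third WT ID8 library, which leaves 2 WT libraries against 3 Tim4KO libraries, 4 members were called as lower in Tim4KO ID8 than in WT ID8 cells. They were Casp1 (log2 -0.62, SE 0.17, edgeR adjusted p = 0.0263), Casp4 (log2 -0.74, SE 0.15, edgeR adjusted p = 0.0043), Il1b (log2 -1.93, SE 0.54, edgeR adjusted p = 0.0322) and Il1rn (log2 -1.86, SE 0.25, edgeR adjusted p = 0.000145). In that fit of 17374 genes, 5.74% were called, 3.49% as lower in Tim4KO. Over all 12 fits that left out 1 library, the adjusted p ran from 0.0263 to 0.793 for Casp1, 0.0043 to 0.64 for Casp4, 0.0322 to 0.801 for Il1b and 0.000145 to 0.729 for Il1rn, and the fit without the third WT ID8 library was the only one with a call of any of them. The same fit called 29.4% of genes for challenge in WT and 20.7% in Tim4KO, with 8 and 6 of the tested members respectively. The third WT ID8 library also differed from the other WT ID8 libraries in the sum of the 11 markers listed for monocytes, small peritoneal macrophages and dendritic cells. Most of that sum came from Cd74, H2-Ab1 and H2-Aa, at 232, 70.4 and 42.5 CPM there. Not every listed marker was higher in that library, and Flt3 was at 0. The summed level of the 11 markers was 391 CPM there, 105 and 130 CPM in the other WT ID8 libraries and 275 to 348 CPM in Tim4KO ID8. In naive libraries it was 262 to 508 CPM in WT and 293 to 390 CPM in Tim4KO. The first and second WT ID8 libraries, which that fit keeps, were thus below all other libraries in this sum. The part of these cells in the difference was not tested.

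**Figure D3:**
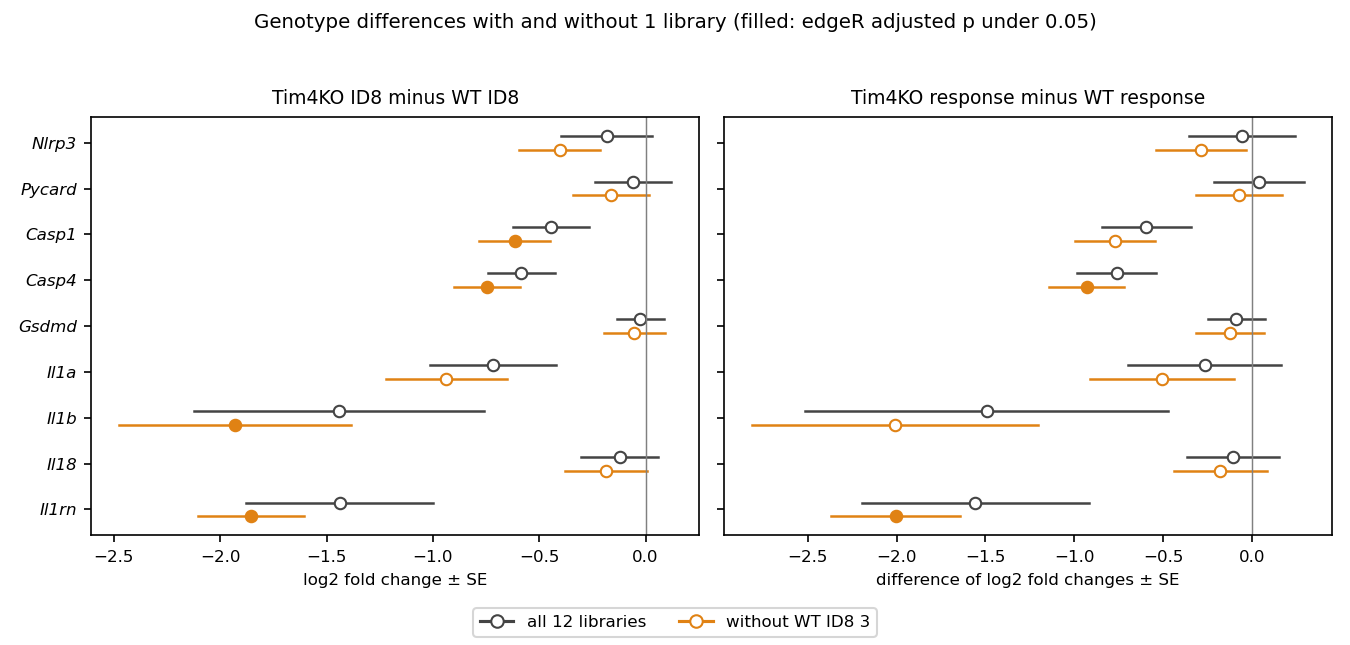
Log2 difference between Tim4KO ID8 and WT ID8 cells, and the difference between the challenge responses of the genotypes, for the 9 tested members with bars of 1 SE. Each member is shown with all 12 libraries and without the third WT ID8 library. Leaving that library out moves Il1rn from -1.44 to -1.86 and Il1b from -1.44 to -1.93 in the first of these.

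The test of whether the challenge response itself differed between genotypes (the interaction) called none of the members, and 0% of all tested genes. DESeq2 called none of the members either, where it called 0.0693% of genes. Without the filter on low counts, also with all 12 libraries, edgeR called Il1rn (-1.62, edgeR adjusted p = 0.0155), where 0.144% of genes were called. Over the settings tried with all libraries, its adjusted p ran from 0.0155 to 0.728. With the filter, the unadjusted edgeR p was under 0.05 for 3 members, Casp1, Casp4 and Il1rn, against 7.44% of all tested genes. The difference of responses, Tim4KO minus WT, was -0.59 for Casp1 (SE 0.25), -0.76 for Casp4 (SE 0.22), -1.49 for Il1b (SE 1.02) and -1.56 for Il1rn (SE 0.64), each with an edgeR adjusted p of 0.668 or, for Il1b, 0.719. The members called in 1 genotype and not in the other were Casp1, Casp4, Il1b and Il1rn. In the filtered fit of all 12 libraries they were not shown to respond differently. Without the filter Il1rn was called, as given above. Without the third WT ID8 library, 2 members passed, Casp4 (-0.93, SE 0.21, edgeR adjusted p = 0.0158, against 0.0158 to 0.969 over such fits) and Il1rn (-2.01, SE 0.36, edgeR adjusted p = 0.00599, against 0.00599 to 0.969). In that fit 2.12% of all tested genes were called, 1.32% as lower. For Nlrp3, Pycard, Gsdmd, Il1a and Il18 the values with all libraries ran from -0.27 to 0.04.

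Per kilobase of exon, the 2 caspase-1 arm genes led in every group. On this scale (CPM per kb of annotated exon, means of 3 libraries) WT naive cells had Casp1 at 61.0, Pycard at 50.8, Gsdmd at 21.1, Il18 at 20.5, Casp4 at 9.96, Nlrp3 at 6.53, Il1a at 4.93, Il1rn at 0.892, Il1b at 0.382 and Il1r2 at 0.189. Tim4KO naive cells held the same order. After challenge Pycard came first, with 93.9 in WT and 90.1 in Tim4KO, and Casp1 followed with 87.0 and 63.8. The libraries of the pair overlapped in WT ID8 and Tim4KO naive, so their order is not settled there. Il1a reached 12.9 in WT, beside Casp4 at 12.01, and 7.80 in Tim4KO, beside Casp4 at 7.97, and the libraries of these neighbours overlapped in both genotypes. Il1rn (4.44) stood above Nlrp3 (3.59) in WT ID8 with overlap, and below it in Tim4KO ID8 (1.62 against 3.13) without. Gsdmd and Il18 overlapped in every group except Tim4KO ID8, where they had 28.2 and 21.4. The union of annotated exons counts long, rarely used ends, which lowers the value per kb of a gene such as Pycard.

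**Figure D4:**
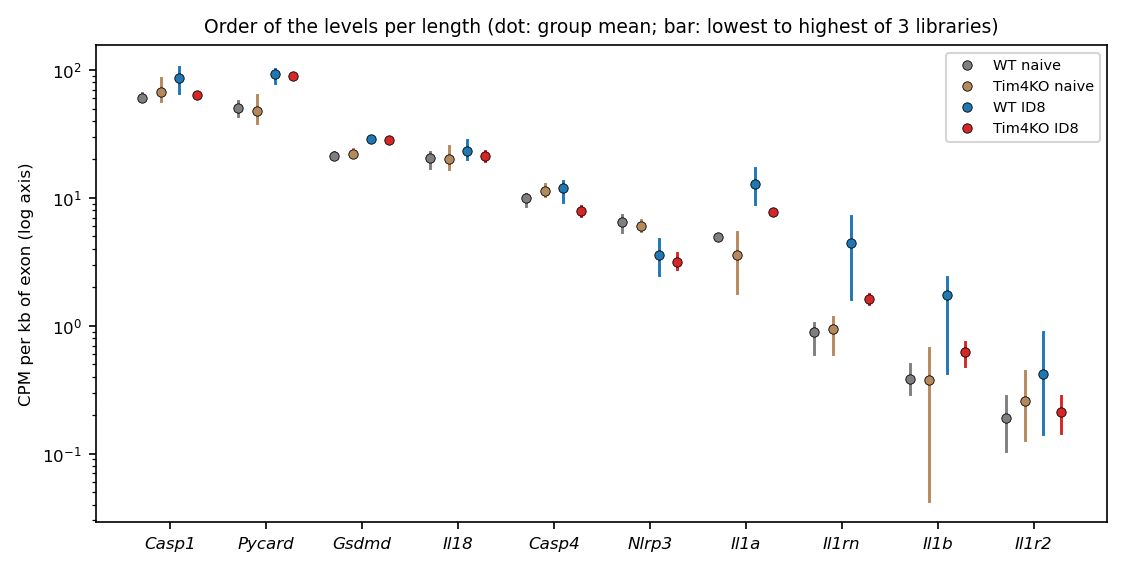
Levels of the 10 members per kilobase of annotated exon, on a log axis, with a dot for the mean of each of the 4 groups and a bar from the lowest to the highest of its 3 libraries. Casp1 and Pycard are the 2 highest in every group and Il1r2 has the lowest mean, and Il1a moves up to the level of Casp4 in both ID8 groups.

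The 4 ratios between members are given as log2 ratios per kb, with exact two-sided permutation tests that cannot go below p = 0.1 with 3 libraries against 3. Casp1 to Casp4 was 2.62 ± 0.164 (SD, n = 3) in WT naive and 2.85 ± 0.0900 in WT ID8, and 2.56 ± 0.172 in Tim4KO naive and 3.003 ± 0.182 in Tim4KO ID8 libraries. The challenge differences, 0.23 in WT and 0.44 in Tim4KO, were without overlap and at the smallest p the exact test allows, 0.1 each. The genotype differences in this ratio were -0.05 in naive cells (exact permutation p = 0.7) and 0.15 in ID8 cells (exact permutation p = 0.2). The ratio of antagonist to cytokine, Il1rn to Il1b, was 1.15 ± 0.321 (SD, n = 3) in naive WT, 1.76 ± 2.02 in naive Tim4KO, 1.45 ± 0.526 in challenged WT and 1.36 ± 0.172 in challenged Tim4KO libraries, and it overlapped in all 4 comparisons. The naive Tim4KO mean rests on its first library, at 4.08 from 1 count of Il1b, beside 0.435 and 0.76 in the others. The ratios of Il1b to Il1a and of Il1r2 to Il1b also overlapped in all comparisons (exact permutation p from 0.2 to 1 over these 3 ratios).

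After removing group means, the correlation between members was taken over the 12 libraries. The 4 highest values of Pearson's r of these deviations in log2 CPM were 0.88 for Il1a with Il1b and 0.88 for Pycard with Casp1, 0.82 for Pycard with Gsdmd and 0.78 for Casp1 with Casp4. The lowest was -0.49, for Il18 with Il1r2. These libraries share depth and background, so the values are descriptions.

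For each tested member the 3 genes with the most similar profile over the 12 libraries were taken from 9731 candidates with a mean count of at least 50. For Nlrp3 they were Zhx1 (Pearson's r 0.978), Zfp758 (0.959) and Ppp3ca (0.953). Those of Pycard included Atp5g1 (0.990) and Psmc5 (0.987), and those of Gsdmd included Aimp2 (0.969) and Polr2l (0.965). Casp1 was nearest to Coq2 (0.972), Nampt (0.971) and Fcgr1 (0.951), the last of which encodes a receptor for antibodies. Casp4 was nearest to Mndal (0.923), Ifi203 (0.914) and Dnajc1 (0.898), and Mndal and Ifi203 belong to the interferon-inducible p200 family together with the DNA sensor Aim2. Il1a was nearest to Cbwd1 (0.977), Trmt10a (0.976) and Nupl2 (0.969), and Il1b to Trmt10a (0.932), Agap1 (0.916) and Il1a itself (0.895). Il1rn was nearest to Ccl7 (0.978), a chemokine that attracts monocytes, followed by Eif5b (0.974) and Trmt6 (0.973). Il18 was nearest to Smim7 (0.944), Ube2d3 (0.909) and Aar2 (0.901).

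The other genes of the pathway were taken as 5 lists, to be read against the 31.8% of all tested genes called after challenge in WT and the 16.6% in Tim4KO. Of 13 tested sensors other than Nlrp3, 1 rose and 2 fell after challenge in WT, and 3 fell in Tim4KO. Mefv, which encodes pyrin, rose in WT (log2 2.05, edgeR adjusted p = 0.0163) from 2 to 8 counts per naive library, and had 1.07 in Tim4KO (adjusted p = 0.21). The other sensor counted as lower in WT was Nlrp12, named to complete the count after its values were seen. Its WT ID8 mean of 0.130 CPM lies under the level of 3 counts, and no fold is given. Nlrc4, the platform of the NAIP sensors for bacterial flagellin, fell in Tim4KO (log2 -0.77, edgeR adjusted p = 0.00456) and had -0.40 in WT (adjusted p = 0.0692). Naip5 fell in both (log2 -0.53 and -0.63, edgeR adjusted p = 0.0378 and 0.0263) and Naip6 in Tim4KO (log2 -0.61, edgeR adjusted p = 0.0137), but these are near-identical copies whose reads the counting could split. The Naip5 call in WT held in 3 of 12 fits that left out 1 library, those without the first library of either naive group or the third WT ID8 library (adjusted p up to 0.187), and was lost without the filter and with only the groups compared. In Tim4KO it held in 7 of 12 (adjusted p up to 0.14), and that of Naip6 in 9 of 12. None of these sensors differed by genotype or in the interaction.

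Among 14 regulators and partners, 2 rose and 2 fell in WT, and 1 rose and 3 fell in Tim4KO. Gbp2, an interferon-induced GTPase that acts on intracellular bacteria, rose in both (log2 1.47 and 1.52, edgeR adjusted p = 0.00615 and 0.00912). Txnip, which encodes a thioredoxin-binding protein described as an NLRP3 ligand, fell in both (log2 -0.93 and -0.81, edgeR adjusted p = 0.00128 and 0.00569). An antisense gene, Gm15441, overlaps 19.4% of the exon bases of Txnip, and strand use in counting is not known. P2rx7, the ATP-gated channel upstream of NLRP3, also fell in both (log2 -0.61 and -0.67, edgeR adjusted p = 0.0316 and 0.0333), although it was called in only 5 and 6 of 12 fits that left out 1 library. Brcc3, which encodes a deubiquitinase of NLRP3, rose in WT (log2 0.57, edgeR adjusted p = 0.00327) and had 0.14 in Tim4KO. Trim30a, a member of a family of close copies described as a negative regulator of NLRP3, fell in Tim4KO (log2 -2.02, edgeR adjusted p = 0.00329) and had -0.57 in WT (adjusted p = 0.21). The interaction was not called for these genes.

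On the receptor side Il1r1 fell, with the largest log2 fold change of any tested gene on these lists in either genotype. It encodes the signalling receptor for interleukin-1 alpha and beta. Il1r1 had 5.26, 4.92 and 4.79 CPM in naive WT, 2.78, 4.24 and 4.53 CPM in Tim4KO naive, 0.344, 0.343 and 0.365 CPM in WT ID8 and 0.691, 0.827 and 0.804 CPM in Tim4KO ID8 libraries. No ID8 library reached any naive library, and the Tim4KO ID8 values lay above the WT ID8 values. The log2 fold change was -3.79 in WT (edgeR adjusted p = 4.07e-06) and -2.30 in Tim4KO (edgeR adjusted p = 0.000242), on 3 to 14 counts per ID8 library. The WT ID8 libraries had 3, 4 and 8 counts, beside a limit of detection taken as 3 counts, so the size of the WT fall is uncertain. Neither the genotype difference in ID8 cells (log2 1.11, edgeR adjusted p = 0.292) nor the interaction (1.49, edgeR adjusted p = 0.668) was called. Il1r1 was the only one of 7 receptors called. Markers of some other cell types were also lower after challenge, and those of others were not. The summed level of 7 mast cell markers was 12.9 to 35.5 CPM in naive, 1.72 to 4.89 CPM in WT ID8 and 5.11 to 9.21 CPM in Tim4KO ID8 libraries, the same order of groups as for Il1r1. Of these, Cpa3, Tpsb2, Cma1 and Mcpt4 were at 0 in none of the 12 libraries, but Mcpt4 had 1 count in every WT ID8 library. Tpsab1 was at 0 in 4, Mrgprb2 in 2 and Fcer1a in 1 of the 12 libraries. The summed epithelial, mesothelial and tumour cell markers ran from 5.99 to 24.8 CPM in naive and from 1.09 to 6.06 CPM in ID8 libraries, and the mesothelial gene Wt1 from 0.599 to 2.68 CPM and from 0.0456 to 0.735 CPM. Their part in the fall of Il1r1 was not tested. Of the 7 other ligands and binding proteins only Il18bp, the soluble inhibitor of interleukin-18, passed the filter, and it rose in both genotypes (log2 1.495 and 1.517, edgeR adjusted p = 0.0106 and 0.0167) while Il18 itself was not called. The Il18bp call held in 12 of 12 fits that left out 1 library in WT and in 8 of 12 in Tim4KO.

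Of 14 genes of interleukin-1 receptor signalling, 1 rose and 2 fell in WT and 3 fell in Tim4KO, beside the same shares of all tested genes, and Myd88 and the Irak genes were not called in either. Nfkbiz, which encodes an inducible nuclear IkB protein, fell in both genotypes (log2 -0.72 and -0.86, edgeR adjusted p = 0.0168 and 0.0109). Peli2, a ubiquitin ligase acting on IRAK proteins, fell in WT (log2 -1.14, edgeR adjusted p = 0.00735) and had -0.40 in Tim4KO. Its WT ID8 libraries had 9.29, 7.04 and 18.8 CPM, so that the third WT ID8 library again lay beside the Tim4KO ID8 values, and without it the WT value was -1.68. Peli1, a close relative, fell in Tim4KO (log2 -0.61, edgeR adjusted p = 0.00973) and had -0.12 in WT. Map3k7, the TAK1 kinase, rose in WT (log2 0.44, edgeR adjusted p = 0.02) and had 0.04 in Tim4KO. Tab2, which encodes a partner of TAK1 and is named only to complete the Tim4KO count, fell there (log2 -0.51, edgeR adjusted p = 0.0152). With 1 library left out, the calls held in 10 (WT) and 9 (Tim4KO) of 12 fits for Nfkbiz, 12 for Peli2, 9 for Peli1 and 9 for Map3k7.

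**Figure D5:**
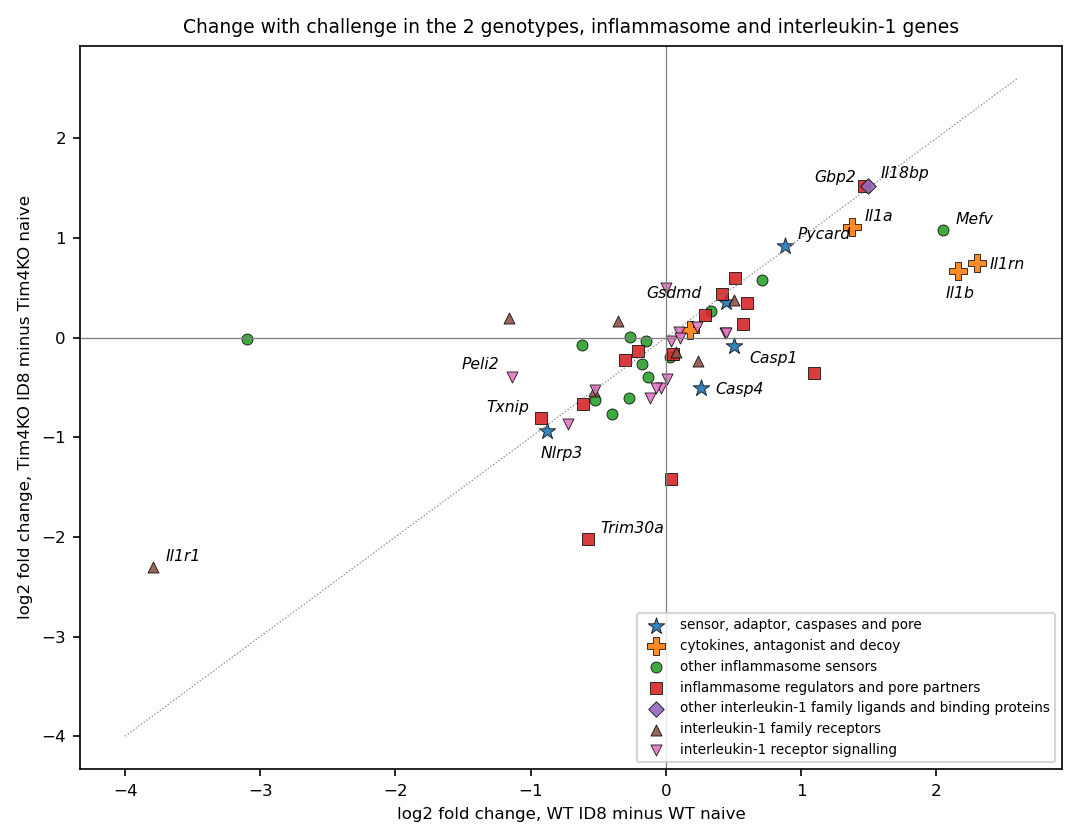
Log2 fold change after challenge in WT (horizontal axis) and in Tim4KO (vertical axis) for the tested genes of 7 lists, with the dotted line marking equal values. Il1r1 lies lowest at -3.79 and -2.30, Il1rn and Il1b lie to the right of the line, and Gbp2, Il18bp and Pycard lie near it.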

How the data were processed

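The labels and the submitters' processing notes name FastQC and STAR 2.5, and the builds mm10 and GRCm39 with no role. The counting program, annotation and use of strand or multimapping reads are not given in the sources used here. Libraries were SMART-Seq, per the labels. The authors deposited raw counts per gene as 1 table of 12 libraries. Symbols, exon lengths and overlaps came from GENCODE vM21 (GRCm38).

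The count test was that of edgeR 4.0.16 (R 4.3.3): filterByExpr, TMM factors, robust quasi-likelihood fit with 1 mean per group, and Benjamini-Hochberg adjustment over 15943 genes. The 5 comparisons shared this fit. The alternatives were DESeq2 1.42.0, RLE and upper-quartile factors, no filter, limma 3.58.1 (voom), only the groups compared, a replicate block, a background covariate and leaving out each library. Ratios used a pseudocount of 0.5 counts. All members were named, and from each list up to 3 genes per direction with the smallest p among those called after challenge. Some genes with profiles like those of Pycard and Gsdmd are not reported here. The members and lists were chosen with earlier results of these data known. Replicate libraries were compared and none agreed within sampling noise.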

Additional observations from a re-analysis of the deposited data

How the results depend on the processing

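All members named as changed after challenge kept their direction under every alternative run. The count of 7 members called in WT was 5 to 8 with 1 library left out, and 4 with upper-quartile scaling or only the groups compared. Of all tested genes, 19.8% to 41.6% were called with 1 library left out. The share was 33.3% with upper-quartile scaling and 21.8% with only the groups compared. In Tim4KO the count of 5 was 2 to 6, where 7.04% to 20.7% of tested genes were called, and 3 without the filter, where 4.59% were. Between genotypes in ID8 cells the count of 0 was 0 to 4, where 0.00575% to 5.74% of tested genes were called. It was 2 with DESeq2 (2.42% of genes), 2 without the filter (0.52%) and 1 with the background covariate (1.03%). For the interaction it was 0 to 2, where 0% to 2.12% were called, and 1 without the filter (0.144%). The causes were not tested. Whether replicate numbers pair the libraries is not settled. Same-numbered pairs had r from -0.095 to 0.325, with 6 of 18 above 0.1, and differently numbered pairs from -0.353 to 0.315. The fit with a replicate block called 6, 5, 0, 0 and 0 members in the 5 comparisons. Of all tested genes it called 29%, 16.1%, 0.0188%, 0.0878% and 0%.

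Some values that were not called changed sign. With upper-quartile scaling, which moved the median of all genes to -0.28 in WT and -0.17 in Tim4KO, Il18 became -0.067 and -0.039 after challenge, the ID8 genotype difference 0.018 for Pycard and 0.05003 for Gsdmd, and the interaction 0.069 for Nlrp3, 0.0405 for Gsdmd and 0.027 for Il18. Il1b in naive cells was -0.36 with voom, the Nlrp3 interaction 0.041 with voom, the Pycard interaction -0.016 without the filter and -0.084 with the covariate, and Gsdmd in ID8 cells 0.0059 with only the groups compared.

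With 1 library left out, the Tim4KO challenge values ran from -0.18 to 0.15 for Casp1 and -0.034 to 0.29 for Il18. The naive genotype values ran from -0.37 to 0.042 for Pycard, -0.064 to 0.26 for Casp1, -0.0013 to 0.12 for Gsdmd, -0.86 to 0.58 for Il1b, -0.21 to 0.11 for Il18 and -0.10 to 0.34 for Il1rn. The ID8 genotype values ran from -0.40 to 0.071 for Nlrp3 and -0.26 to 0.033 for Il18, and the interaction from -0.29 to 0.19 for Nlrp3, -0.11 to 0.30 for Pycard, -0.60 to 0.19 for Il1a and -0.25 to 0.077 for Il18. Differences in the Il1rn to Il1b ratio ran from -1.06 to 0.77 (Tim4KO challenge), -0.55 to 1.27 (naive genotype) and -0.37 to 0.13 (ID8 genotype), those of Il1b to Il1a from -0.66 to 0.28 (Tim4KO challenge) and -0.25 to 0.69 (naive genotype), of Il1r2 to Il1b from -0.036 to 0.91 (ID8 genotype) and of Casp1 to Casp4 from -0.15 to 0.024 (naive genotype). Depth limits Il1b and Il1r2, which had at most 53 and 15 counts per library.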
